A study of Mus musculus with 7 samples.

Results

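The sortilin family comprises 5 receptor genes of the mouse, Sort1 (sortilin), Sorl1 (SorLA), Sorcs1, Sorcs2 and Sorcs3, which were examined here among 21900 protein-coding genes for Fos binding after seizures. Members were taken by name. Every Fos peak that overlapped a gene span of the RefSeq table (assembly GRCm38.p6), extended by 10 kb on both sides and called its window below, was assigned to that gene. Overlapping peaks of all libraries (1 bp or more) were merged into regions. Of 26862 regions that 2 or 3 of the kainic acid libraries shared, 48 lay at these 5 genes. Chromatin immunoprecipitation with sequencing had been run with a monoclonal antibody against Fos on hippocampus of wild-type C57BL/6J mice aged 2 months. The saline group (3 libraries) had received PBS. The kainic acid group (3 libraries) had received 2 intraperitoneal injections of 10 mg/kg kainic acid, a glutamate receptor agonist that provokes seizures, spaced by 30 min, and hippocampi were taken 1 hour after the first from animals with seizures of level 4. An input library from saline tissue is not used here. Neither the number of animals behind a library nor whether libraries came from separate animals is stated in the labels, so p-values measure only the spread between these libraries.

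Sortilin family receptors are transmembrane proteins with a Vps10p domain that carry cargo between the Golgi, the cell surface and endosomes. In neurons, sortilin and SorCS2 bind the precursors of neurotrophins together with the co-receptor Ngfr, SorLA retrieves the amyloid precursor protein from endosomes through the retromer complex, and SorCS1 and SorCS3 take part in the traffic of synaptic receptors. Fos pairs with Jun proteins as AP-1, a transcription factor made after strong neuronal activity that binds mostly at sites away from promoters.

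The kainic acid lists held between 15009 and 63197 peaks and the saline lists between 2 and 3277, of which saline replicates 1 and 3 had 7 and 2. Kainic acid replicate 2 had the longest list and replicate 1 the shortest. Read totals do not come with the lists, so a gene without a peak in a list is a gene where none was called, and not one shown to be unbound. Of the tissue markers examined, 5 of 5 neuronal genes had a region in at least 2 kainic acid lists within 10 kb, against 3 of 5 astrocyte, 3 of 5 oligodendrocyte, 1 of 5 microglial, 1 of 5 endothelial and 0 of 5 liver genes. These genes differ in length, and the part of cell type in the results below was not tested. In whole tissue, binding in fewer cells and weaker binding per cell cannot be told apart.

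Transcription start windows are shown first for Sorl1 and Sorcs3 because, of the 3 genes with a window in the table (Sorl1, Sorcs3 and Sorcs1), these had regions closest to the start, none of which reached it. Each is RefSeq sequence of GRCm38.p6, written 5′ to 3′ on the strand of the gene, with the 250 bases before the start in lower case and the 50 bases from the start in capitals. The Sorl1 window is chr9:42124248-42124547 on the minus strand and the Sorcs3 window is chr19:48205775-48206074 on the plus strand.
Sorl1: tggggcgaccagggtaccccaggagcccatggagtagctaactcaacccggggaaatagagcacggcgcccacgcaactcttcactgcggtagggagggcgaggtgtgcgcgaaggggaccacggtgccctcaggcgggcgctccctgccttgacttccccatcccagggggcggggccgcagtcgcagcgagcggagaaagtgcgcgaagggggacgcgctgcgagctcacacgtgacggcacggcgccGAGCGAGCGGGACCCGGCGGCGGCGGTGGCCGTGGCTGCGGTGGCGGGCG
Sorcs3: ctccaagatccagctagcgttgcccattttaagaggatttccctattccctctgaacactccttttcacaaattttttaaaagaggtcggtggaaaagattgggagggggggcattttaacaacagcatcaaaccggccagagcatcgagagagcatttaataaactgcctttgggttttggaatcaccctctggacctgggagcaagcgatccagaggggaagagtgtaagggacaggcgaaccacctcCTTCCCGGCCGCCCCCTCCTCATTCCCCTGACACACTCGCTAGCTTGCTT
No kainic acid peak of any list overlapped either window. The nearest region in at least 2 lists lay 791 bp from the Sorl1 window and 1063 bp from the Sorcs3 window, on the transcribed side of the start in both genes. Replicate 2 alone had 2 peaks nearer to the Sorcs3 start, chr19:48206183-48206389 (fold 2.84), which is 109 bp from the window, and chr19:48204843-48205238 (fold 4.86), 787 bp upstream of the start. At Sorcs1 the nearest kainic acid peak was 3244 bp from the start window. The Sorl1 window is 72.3% G and C with 37 CpG, that of Sorcs1 is 80.7% with 50 CpG and that of Sorcs3 is 51.0% with 9 CpG, against medians of 52.7% and 7 CpG over 32851 windows of the table. The AP-1 motif TGANTCA and the CRE motif TGACGTCA, searched on both strands, were in 0 of the 4 windows of these genes, which include a second Sorl1 start at chr9:42077164-42077463. Among all windows, 7.81% held TGANTCA and 1.79% held TGACGTCA. The sequence under the regions themselves was not analysed here.

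All 5 genes had at least 1 region in at least 2 kainic acid lists, and at least 1 in all 3 lists. By the same rule 40.0% of all protein-coding genes had a region in at least 2 lists and 23.9% in all 3. Among the 3139 genes with a window of at least 100 kb the shares were 77.8% and 59.7%, so the presence of a region at genes of this length is common. The number ran from 16 at Sorl1 and 14 at Sorcs2 to 8 at Sorcs3, 6 at Sort1 and 4 at Sorcs1. Per 100 kb of window the order changed, since the windows are 180 kb long at Sorl1, 97.5 kb at Sort1, 401 kb at Sorcs2, 619 kb at Sorcs3 and 556 kb at Sorcs1. The density was 8.91 regions per 100 kb at Sorl1, 6.15 at Sort1, 3.49 at Sorcs2, 1.29 at Sorcs3 and 0.720 at Sorcs1. Over the 5 genes the median was 3.49 regions per 100 kb, the value of Sorcs2. The median was 0 over all protein-coding genes, 3.02 over those with a region and 1.11 over genes with windows of at least 100 kb. Sorl1 was rank 428 of 21900 by density, a percentile of 98.0 (100 is the densest), and Sort1 was at 94.4. Sorcs2 followed at 83.5, Sorcs3 at 65.8 and Sorcs1 at 61.9. Among genes with long windows, Sorl1 stood at 99.1, Sorcs2 at 84.3, Sorcs3 at 53.0 and Sorcs1 at 35.4. Sorcs1 was thus below the median of long genes and Sorcs3 close to it, while Sorl1 and Sorcs2 were above. The spacing of the Sorcs genes depended on replicates 2 and 3. Without replicate 2, percentiles among all protein-coding genes were 76.2 at Sorcs1, 76.4 at Sorcs2 and 77.2 at Sorcs3. Without replicate 3 they were 75.0, 74.7 and 75.5.

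**Figure D1:**
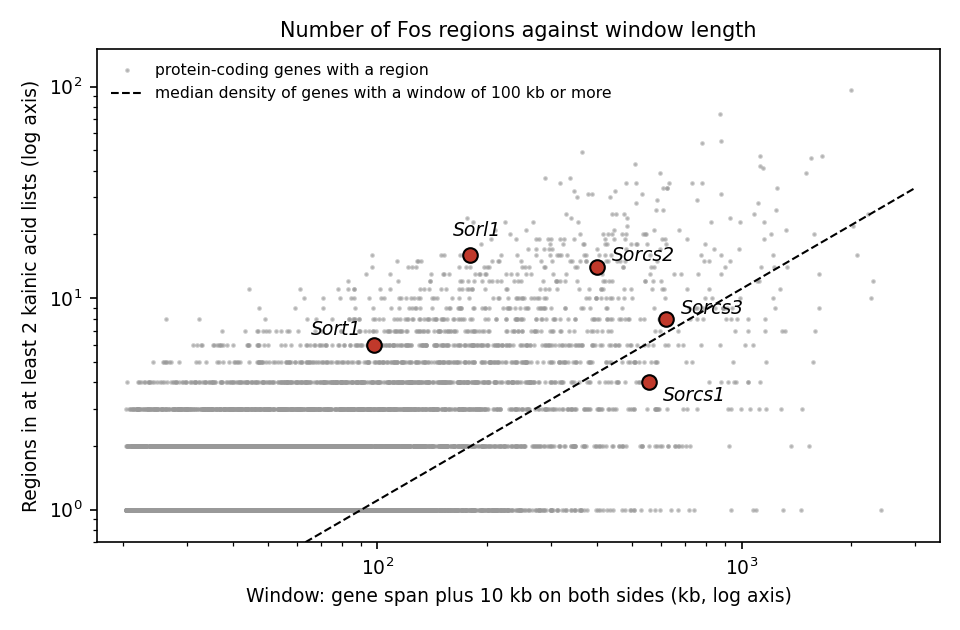
Count of Fos regions supported by 2 or more kainic acid lists (vertical, log axis) against window length in kb (horizontal, log axis) for protein-coding genes with a region (grey points) and the 5 receptor genes (red points). The dashed line is the median density of genes with long windows, 1.11 regions per 100 kb, with Sorl1, Sort1 and Sorcs2 above it, Sorcs3 slightly above and Sorcs1 below.

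The counts rested on the longer lists. Of the 48 regions, 32 of the 33 in exactly 2 lists were shared by replicates 2 and 3, and a further 48 regions were called in replicate 2 alone. Over the whole series the same lists led, with 87.9% of 14925 regions in exactly 2 lists shared by replicates 2 and 3 and 89.0% of 39821 single-list regions from replicate 2. Without replicate 2 the total fell to 15 regions and without replicate 3 to 16, whereas without replicate 1 it was 47. Sorl1 kept the first place among the 5 in each case, with 16 regions without replicate 1 and 8 without either of the others, at density percentiles of 98.3, 97.3 and 96.9. Sorcs2 was the gene that depended most on them, with 14 regions without replicate 1 and 1 without replicate 2 or without replicate 3. Without replicate 2, Sorcs3 had 3 regions, Sort1 had 2 and Sorcs1 had 1, and without replicate 3 they had 3, 2 and 2. The share of regions in all 3 lists was 31.2% (15 of 48, 95% Clopper-Pearson interval 18.7 to 46.3, which covers counting error only), beside 44.4% of all 26862 regions. With the lists cut to equal numbers of peaks it was 48.0% (12 of 25), beside 59.2% of 13226 regions over all the genome at that setting. Both shares were below those of the whole series. The interval of the first includes 44.4%, however, and none was computed for the second, so a difference is not shown. By gene it was 8 of 16 at Sorl1, 3 of 8 at Sorcs3, 2 of 6 at Sort1, 1 of 4 at Sorcs1 and 1 of 14 at Sorcs2. Sorcs2 alone held 13 of the 33 regions in exactly 2 lists.

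The next comparison asks whether these genes had more called Fos peaks after kainic acid than after saline. Sorl1 had 8, 25 and 17 peaks in kainic acid replicates 1, 2 and 3 and 0 in each saline list. Sorcs3 had 3, 27 and 8 against 0 in each saline list, and Sorcs1 had 2, 10 and 3 against 0. Sort1 had 2, 14 and 6 peaks against 0, 1 and 0, and Sorcs2 had 1, 23 and 14 against 0, 1 and 0. The groups did not overlap at Sorl1, Sorcs3, Sorcs1 and Sort1, while at Sorcs2 kainic acid replicate 1 and saline replicate 2 had 1 peak each. Such separation, every kainic acid list above every saline list, held for 32.9% of the 13771 protein-coding genes with a peak in any list and for 62.0% of those with long windows, so 4 of 5 members is a count to be read against that. Of the 4, Sorcs1 lost the separation among peaks with −log10 q of at least 10 (a difference of 0.16 on the log10(peaks + 1) scale in place of 0.71, exact permutation p = 1.0), and Sort1 lost it within the gene span alone (exact permutation p = 0.2). Kainic acid lists were each longer than every saline list, and the part of list length in these counts was not tested. The opposite separation held for 0.0% of genes. It needs a peak in saline replicates 1 and 3, whose lists held 7 and 2 peaks, so it could hardly occur at any gene.

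On the log10(peaks + 1) scale, Sorl1 averaged 1.21 ± 0.234 (SD, n = 3) with kainic acid and 0 with saline, with p = 0.1 in a two-sided exact permutation test. Differences were 1.00 at Sorcs3, 0.85 at Sorcs2, 0.73 at Sort1 and 0.71 at Sorcs1, beside a median of 0.26 over all genes tested. That median takes in genes of all window lengths, and longer windows can hold more peaks. A median for long windows alone is not given here, so the members are not shown to exceed genes of their length. The exact permutation p was 0.1 for Sorcs3, Sort1 and Sorcs1, the smallest that 3 libraries against 3 allow, and 0.2 for Sorcs2. After Benjamini-Hochberg adjustment over the 13771 genes the permutation values were 0.304 and, for Sorcs2, 0.552. No gene could pass 0.05 in this design, and 0 did before or after adjustment. Setting the counts against list length gave a different picture for the genes with a saline peak. Sort1 had 1.33, 2.22 and 2.02 peaks per 10000 peaks of the kainic acid lists and 3.05 per 10000 in saline replicate 2, above all of them. Sorcs2 had 0.666, 3.64 and 4.72 per 10000 against the same 3.05, which lies inside the kainic acid range. For Sorl1 the values were 5.33, 3.96 and 5.73 against 0 in each saline list. The saline lists held 7, 3277 and 2 peaks, so a 0 in them carries little weight.

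**Figure D2:**
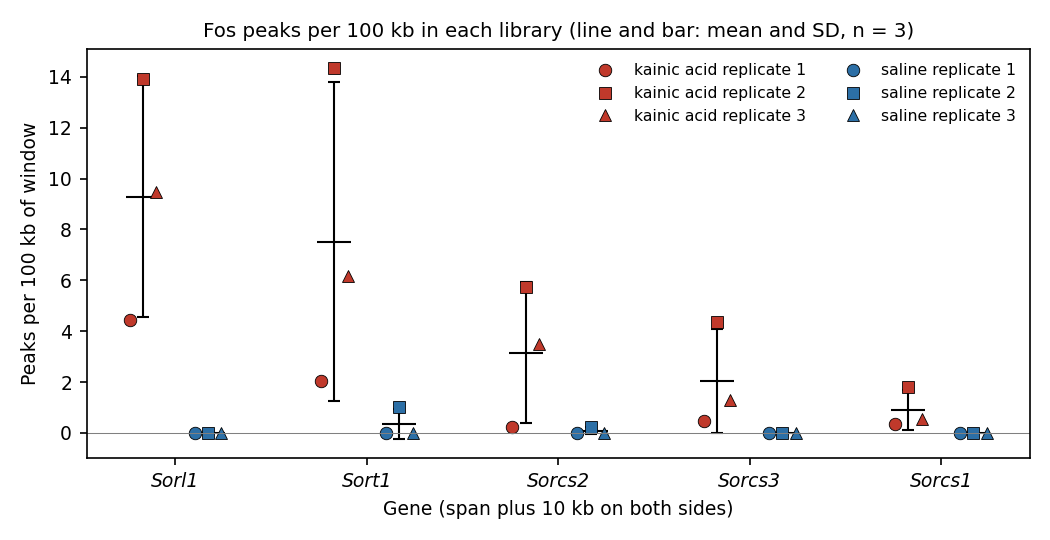
Fos peaks per 100 kb of window (vertical) at each gene (horizontal) in the 3 kainic acid libraries (red) and the 3 saline libraries (blue), with horizontal lines and bars for the mean and SD. Kainic acid replicate 2 is the highest point at each gene, and saline points are at 0 except for 1 peak of saline replicate 2 at Sort1 and at Sorcs2.

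In peaks per 100 kb of window, the kainic acid libraries gave 9.28 ± 4.74 at Sorl1, 7.52 ± 6.26 at Sort1, 3.16 ± 2.76 at Sorcs2, 2.04 ± 2.04 at Sorcs3 and 0.90 ± 0.78 at Sorcs1 (mean ± SD, n = 3). Neighbours in this order did not differ beyond their SDs. Within each library, however, Sorl1 and Sort1 both lay above all 3 Sorcs genes. Sorl1 had 4.45, 13.9 and 9.47 peaks per 100 kb in replicates 1, 2 and 3, and Sort1 had 2.05, 14.4 and 6.15, so their own order turned in replicate 2. Sorcs2 had 0.249, 5.74 and 3.49, Sorcs3 had 0.484, 4.36 and 1.29, and Sorcs1 had 0.360, 1.80 and 0.540. Sorcs2 was the lowest of the family in replicate 1 and above the other Sorcs genes in replicates 2 and 3. The order of the genes is given as a description and was not tested.

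Sorl1 encodes SorLA, the sorting receptor that returns the amyloid precursor protein from endosomes to the Golgi. Its gene spans chr9:41964709-42124297 and is read from the minus strand. Its 16 regions all lay inside the span, 8 of them in the first 20% on the start side, and the longest stretch without a region was 27.0 kb. Exons and introns were not analysed here. The region of best mean rank, chr9:42100520-42101874, lay 23.1 kb into the gene and was in all 3 lists, with folds over local background (the authors' own values) of 6.53, 12.9 and 8.18 in replicates 1, 2 and 3. Ranked by fold within each list, these are places 1717 of 15009, 1419 of 63197 and 1263 of 29650, a mean percentile of 5.99 ± 4.83 (SD, n = 3, where 0 is the highest fold). The pileup at the summits was about 28, 50 and 46 reads, as solved from the deposited fold and p-value. The next, chr9:42122178-42123457, was the only region of the family in at least 2 lists within 1 kb of a listed start, 840 bp into the gene, with folds of 12.1 and 6.37 in replicates 2 and 3 and no peak in replicate 1. The highest fold of any family peak, 20.8 in replicate 2 (place 177 of 63197), belonged to chr9:42069418-42070145, 54.5 kb into the gene and 7068 bp downstream of the second listed start. The same region had folds of 6.49 and 6.16 in replicates 1 and 3, at percentiles of 11.7 and 12.5, so its height in replicate 2 was not matched in the other libraries. Of the 16 regions, 8 had a mean percentile below 25 and 3 were in the lower 50% of their lists. The pair farther in, at chr9:42032472-42033383 and chr9:42034836-42035866, also overlaps the long noncoding RNA gene Gm16214, so these regions belong to both annotations.

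Sort1 encodes sortilin, which binds neurotrophin precursors and sorts them in the secretory pathway, and spans chr3:108283974-108361519. The strand of Sort1 and Sorcs2 was not used here, so positions in these genes are given from the lower-coordinate end. The strongest region of Sort1, chr3:108358382-108359390, lay 74.9 kb from that end and had the best mean percentile of the family, 4.69 ± 2.23 (SD, n = 3). Its folds were 7.35, 11.1 and 8.94 in replicates 1, 2 and 3, the highest fold of a family peak in replicates 1 and 3, with 30, 40 and 44 reads over the summits. The summits of the 3 libraries lay within 38 bp of each other. The other region in all 3 lists, chr3:108363594-108364665, lay 2075 bp outside the span, between Sort1 and its neighbour Mybphl. Its folds of 3.72, 7.29 and 3.27 put it at percentiles of 75.9, 14.1 and 81.0, and its summits were 672 bp apart, which makes it the least uniform of the regions in all 3 lists by summit position. Replicate 2 had 2 peaks in this region, and its values are those of the peak of higher fold. The summits compared may thus belong to different peaks. A region at chr3:108327266-108328356 had folds of 5.63 and 5.36 in replicates 2 and 3. Of the 6 regions, 4 ranked in the lower 50% of their lists by mean percentile, and the first 34.4 kb from the lower-coordinate end held no region in at least 2 lists. In that stretch lay the single saline peak of Sort1, inside the region chr3:108296341-108297114, with a fold of 4.51 (place 1111 of 3277 in saline replicate 2). Kainic acid replicate 2 had a peak in the same region, with a fold of 3.85 (place 42505 of 63197), and replicates 1 and 3 had none.

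Sorcs2 encodes SorCS2, a receptor for the BDNF precursor, and spans chr5:36017180-36398197. Its 14 regions were spread along the gene, 12 inside the span between 10.7% and 92.1% of its length and 2 in the flanks, with no stretch over 89.6 kb without a region. Only chr5:36303959-36304869 was in all 3 lists, with folds of 4.98, 5.35 and 5.57 in replicates 1, 2 and 3 at percentiles of 32.1, 31.3 and 18.0. The best mean percentile of Sorcs2 belonged to chr5:36085657-36086209, with folds of 8.80 and 5.76 in replicates 2 and 3 (places 5044 of 63197 and 4685 of 29650), which overlaps the long noncoding RNA gene Gm52811. It was followed by chr5:36260698-36261748, with folds of 9.18 and 5.36, and chr5:36129692-36130478, with folds of 6.94 and 5.57. Replicate 1 had no peak in these 3 regions. The saline peak of Sorcs2, at chr5:36324261-36324736 with a fold of 5.19 in saline replicate 2, overlapped no kainic acid peak.

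Sorcs3 encodes SorCS3, a postsynaptic sorting receptor, and spans chr19:48206025-48805505 on the plus strand. All 8 of its regions lay in the first 37.3% of the gene, and the remaining 376 kb (62.7% of the span) held none in at least 2 lists. Replicate 2 alone had peaks in 6 regions of that stretch. The strongest region, chr19:48258597-48259885, lay 53.2 kb from the start and had folds of 6.22, 14.8 and 8.01 in replicates 1, 2 and 3, with a mean percentile of 6.80 ± 6.80 (SD, n = 3). It was followed towards the 3′ side by 2 more regions, at 55.0 and 56.5 kb, seen in replicates 2 and 3 but not in replicate 1. The region nearest the start, chr19:48207137-48208670, began 1112 bp into the gene and was in all 3 lists, with folds of 6.23, 11.6 and 6.55 and a mean percentile of 9.27 ± 5.57 (SD, n = 3). It was the widest of the family at 1534 bp. The third region in all 3 lists, chr19:48367793-48368796, had folds of 4.63, 7.69 and 5.10.

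Sorcs1 encodes SorCS1, which sorts synaptic adhesion and receptor proteins, and spans chr19:50143295-50679129 on the minus strand. It was the sparsest of the family, with 4 regions, all in the start-side 49.3% of the gene. The only region in all 3 lists, chr19:50487393-50488125, lay 191 kb from the start side of the span and had folds of 4.59, 6.10 and 4.33 in replicates 1, 2 and 3. Its mean percentile of 34.9 ± 11.0 (SD, n = 3) was the weakest best region among the 5 genes. The region nearest the start, chr19:50675036-50675353, had folds of 4.56 and 5.67 in replicates 1 and 2 and was the only family region missing from replicate 3 but present in replicate 1. A region at chr19:50414676-50415472 had folds of 5.82 and 3.14 in replicates 2 and 3. With −log10 q of at least 10, 0 regions of Sorcs1 remained, against 8 at Sorl1, 5 at Sorcs2, 3 at Sorcs3 and 2 at Sort1.

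**Figure D3:**
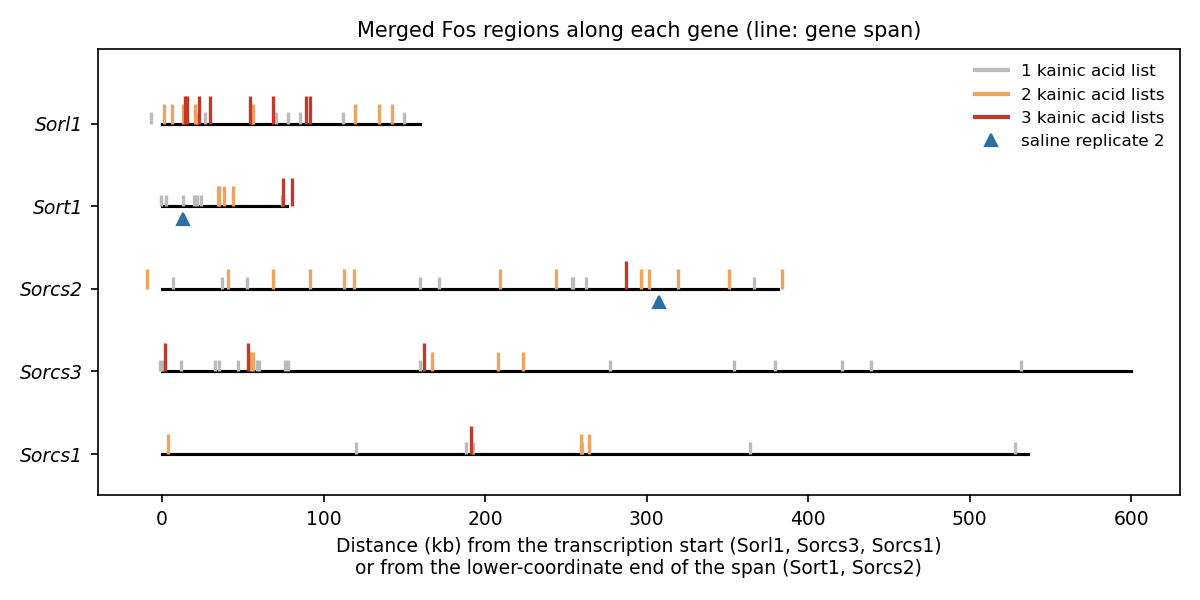
Position of merged regions along each gene span (horizontal black line), in kb from the start side for Sorl1, Sorcs3 and Sorcs1 and from the lower-coordinate end for Sort1 and Sorcs2, with colour and height for the number of kainic acid lists and triangles for regions with a saline peak. Regions in at least 2 lists stop at 224 kb in Sorcs3 and at 264 kb in Sorcs1, while those of Sorcs2 and Sorl1 run along most of the gene.

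Across the family, 45 of the 48 regions lay inside a gene span and 3 in the flanks. The flanks, 10 kb on each side of a gene, are a small part of the 1853 kb of window. The flanking region farthest out was 8947 bp from Sorcs2. The nearest regions beyond the 10 kb limit lay at 13690 bp from Sorl1, 16471 bp from Sorcs2, 24076 bp from Sort1, 62053 bp from Sorcs3 and 93533 bp from Sorcs1. None of the 48 regions had a saline peak, which is rare at such regions in general, with 540 of all 26862 in at least 2 kainic acid lists. In the 15 regions of all 3 lists the summits of the libraries were a median of 103 bp apart at most, and in 12 of them they lay within 200 bp. Of the 48 regions, 6 had a mean fold percentile below 10 and 17 were above 50, with a median of 36.1. These ranks are within whole lists, which include the peaks of 39821 single-list regions. The same values over all regions in at least 2 lists are not given here. Regions in all 3 lists had a median percentile of 26.1 and those in 2 lists 45.0, and regions called in replicate 2 alone had 69.6. Within the family, support by more lists thus went with a higher rank, although these medians draw on different sets of lists. Peaks of higher fold are also more readily called in the shorter lists. The order is thus partly built in and is no separate evidence of replicate support.

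**Figure D4:**
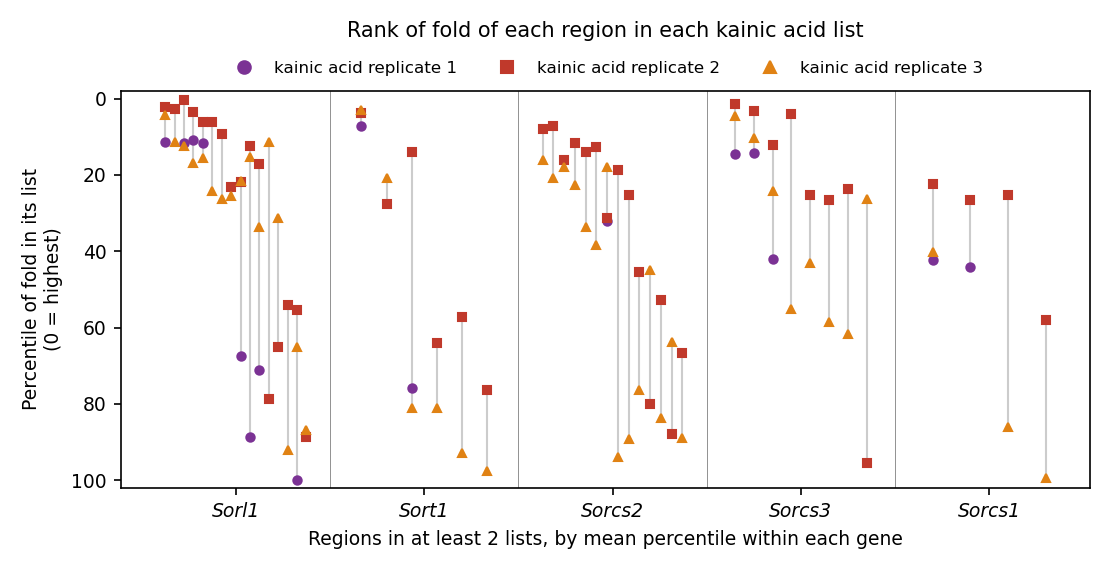
Percentile of fold within its list (vertical, 0 is the highest) for each of the 48 regions, ordered within each gene by mean percentile, in kainic acid replicates 1 (circles), 2 (squares) and 3 (triangles), with grey lines joining the values of a region. The best regions of Sort1, Sorl1 and Sorcs3 lie near the top in all 3 lists, and in many regions of lower mean rank the lists differ widely.

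The genes most like each member in peaks per 100 kb over the 6 lists were found among protein-coding genes with windows within 1.5 times its length, by Euclidean distance on the log2(peaks per 100 kb + 1) scale. For Sorl1 they were Zfp608 (distance 0.15) and Zswim6 (0.26), with 9 and 13 regions. For Sort1 they were Hectd2 (0.24) and Mon2 (0.29), each with 1 peak of saline replicate 2, a list that enters the distance. For Sorcs3 the closest was Ttc28 (0.28), and for Sorcs1 they were Pde11a (0.14) and Fhod3 (0.15). Sorcs2 had the least close matches, Maml2 (0.56) and Shisa9 (0.57), neither of which had a saline peak.

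Partner genes of the receptors were read from a list of 28, of which 12 had a region in at least 2 kainic acid lists, a share near the 40.0% of all protein-coding genes given above. The list comprised ligands and co-receptors (5 of 10 with a region), sorting adaptors and retromer (2 of 10), processing and shedding enzymes (3 of 3) and cargo (2 of 5). The most regions were at Ntrk2, the BDNF receptor, with 32 regions (9.21 per 100 kb), a density close to that of Sorl1. Ntrk3, the receptor of neurotrophin 3, had 19 (4.51 per 100 kb), App, the amyloid precursor protein that SorLA sorts, had 12 (4.95 per 100 kb), and Bdnf, the neurotrophin whose precursor sortilin and SorCS2 bind, had 6 (8.29 per 100 kb). Ntrk2 had 19, 89 and 33 peaks in kainic acid replicates 1, 2 and 3, Ntrk3 had 9, 51 and 22, App had 7, 28 and 13, and none of these 3 genes had a saline peak. Bdnf had 4, 10 and 11 with 1 peak in saline replicate 2. The genes without a region in at least 2 lists included Ntf5, Ngfr and Nts among ligands and co-receptors, the retromer genes Vps35, Vps26a, Vps26b and Vps29, the adaptors Snx2, Gga1, Gga2 and Gga3, and Apoe, Bace1 and Lpl from the cargo list. Among the other genes with a region, Furin, a protease that cleaves neurotrophin precursors, was the densest of the list (13.8 per 100 kb, with 5 of 5 regions in all 3 lists), and the sorting nexin genes Snx1 and Snx27 had 4 and 1. These 3 were singled out after their values were seen. The windows of the genes without a region are all shorter than that of Sort1.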

How the data were processed

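The deposited data were 6 peak lists in narrowPeak format, 1 per library and not pooled. Per the submitters' processing notes, Trim Galore 0.6.4, Bowtie2 2.3.4.3, MACS2 and deepTools 3.5.0 were used with the build mm10, and peak names carry a mapping quality of 30. Neither the peak calling cutoff nor the control is given in the sources used here. The deposited fold is a linear ratio to local background. Each list also carries the authors' −log10 p-value, −log10 q-value and score (10 times −log10 q, rounded down). All belong to 1 library and were used only for ranks and filters within a list. Where a list had more than 1 peak in a region, the peak of highest fold gave its fold, rank and summit. Depth is unknown. Reads over a summit were solved from fold = (k + 1)/(λ + 1) and the Poisson p, with 161 of 161 family peaks within 0.001 in −log10 p. Python 3.11.15, pandas 2.3.3 and scipy 1.17.1 were used. Merging, counting, permutation and the solver were tested on simulated data and returned 3325 of 3325 regions, 705 of 705 gene counts, 200 of 200 raised genes and 500 of 500 pileups. Peaks per gene were compared with an exact permutation test over 20 assignments for all protein-coding genes with a peak, adjusted by the Benjamini-Hochberg method.

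Regions described singly are the 3 of best mean percentile of fold per gene, those with a saline peak and those within 1 kb of a start, and others singled out for a feature were chosen after their values were seen. The members and lists were chosen with earlier results of these data known. Start windows and strands came from RefSeq, with 3 of 5 members matched. A few genes that these rules select are not reported here.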

Additional observations from a re-analysis of the deposited data

How the results depend on the processing

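The total of 48 regions and 2.59 regions per 100 kb over the 5 genes changed with the stringency of calling. With −log10 q of at least 5 they were 28 and 1.51, and with at least 10 they were 18 and 0.971. Required in all 3 lists they were 15 and 0.809, with any list 96 and 5.18, and with equal numbers of peaks per list 25 and 1.35. When a kainic acid library was left out, there were 15 to 47 regions and 0.809 to 2.54 per 100 kb. The share of protein-coding genes with a region, 40.0%, became 32.9% and 19.5% at −log10 q of 5 and 10, 23.9% in all 3 lists, 61.2% in any list, 28.4% for the gene span only, 62.7% at a reach of 50 kb, 36.8% with 50% peak overlap, 27.0% with equal numbers of peaks, and 23.9% to 38.8% with one library left out. Fewer or shorter lists and narrower windows allow fewer regions by construction. Sorl1 kept the highest density percentile of the 5 genes in each setting run for all of them, from 94.6 to 98.7, while Sort1 ranged from 78.0 to 96.7. In the same settings Sorcs2 ranged from 73.9 to 91.5, Sorcs3 from 60.9 to 81.9 and Sorcs1 from 40.2 to 76.3. The share of family regions in all 3 lists moved to 48.0% with equal numbers of peaks. The median percentile of the strongest regions, 6.80, ran from 3.43 to 9.54 with one library left out.

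Differences between groups kept their sign in each alternative, but not all kept their size or p. Saline replicates 1 and 3 held 7 and 2 peaks in all, so the sign could hardly reverse and its being kept is no support. At −log10 q of at least 10, Sorcs1 fell from 0.71 to 0.16 (exact permutation p = 1.0 in place of 0.1) and Sorcs2 had p = 0.4 in the same permutation test. Per 10000 peaks of the list, Sort1 had an exact permutation p of 0.4, and for the gene span only 0.2. The exact permutation p at Sorl1 and Sorcs3 was 0.1 in the main and in each of these settings. With one library left out they ran from 1.10 to 1.34 at Sorl1, 0.78 to 1.20 at Sorcs3, 0.64 to 1.18 at Sorcs2, 0.56 to 0.91 at Sort1 and 0.54 to 0.82 at Sorcs1, and no p could pass 0.05. With the replicate block the exact sign-flip permutation p was 0.25 at each gene, the smallest that 3 pairs allow, with the same differences, 1.21 at Sorl1. The numbers were not taken as pairs, since the labels give no shared day or litter. Correlations of deviations across 13771 genes for same-numbered libraries were 0.0578, 0.0375 and −0.0223. With 7 and 2 peaks in saline replicates 1 and 3, these correlations cannot show whether libraries were paired. Of 319 alternative values, 192 were labelled the same, 127 moved and 0 reversed. The group differences had no limit on size and counted as the same unless their sign changed, as Sorcs1 at 0.16 did. Only these differences could be labelled reversed.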
